A study of Zea mays with 12 samples.

Results

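The set consists of 199 genes, of 34348 in the tables, whose transcripts were at least 2-fold lower in both naked endosperm mutants than in the wild type. The members were chosen by these RPKM values: a gene entered where its lowest value in 4 wild type libraries was at least 2 RPKM and its highest value in 8 mutant libraries was at most 0.5 times that lowest value. RPKM counts reads per 1 kilobase of a gene, scaled to the size of the library. Of 18647 genes that reached 2 RPKM in every wild type library, 202 met this rule, and 3 genes were then left out by name, namely the targeted gene nkd2, crtRB1 and an identifier of PDIL5-1 (GRMZM2G443655). The RNA came from whole endosperm of Zea mays, the kernel tissue that stores starch and protein, taken at 16 days after pollination from self-pollinated field plants of the W22 inbred. The genotypes nkd1-Ds, nkd2-Ds and wild type (WT) were represented by 4 libraries each, described by the series as biological replicates, and both mutants are named for insertions of the transposon Ds. Because the rule used the WT values and all mutant values, every difference of a member from WT is given as a description without a test. The members were also compared between the mutants. That contrast does not use the WT values, but the rule capped all 8 mutant values, and 125 members passed the filter on low values through WT alone. Counts over members in that comparison are therefore given as a description, and each p is that of the fit over all genes.

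The proteins NKD1 and NKD2 are made by duplicate genes and belong to the INDETERMINATE domain family, whose zinc fingers bind DNA and which regulate other genes. In maize they are known to act in the formation of the aleurone, the outer cell layer of the endosperm, and in endosperm maturation. The carotenoid pigments of the endosperm, abscisic acid made from them and the storage reserves belong to that maturation.

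Libraries held 35.3 to 48.0 megareads assigned to genes. The targeted gene nkd1 (GRMZM2G129261) averaged 49.2 ± 3.41 RPKM in WT against 12.8 ± 1.08 RPKM in nkd1-Ds and 35.1 ± 1.57 RPKM in nkd2-Ds (all n = 4, with the SD). The targeted gene nkd2 (GRMZM5G884137) averaged 19.5 ± 0.762 RPKM in WT. Its means were 1.10 ± 0.0780 RPKM with the nkd1-Ds label and 1.14 ± 0.141 RPKM in nkd2-Ds. Since nkd2 transcript was low in both mutants, the nkd1-Ds group is named by its label only, and what is said of its libraries applies to libraries in which nkd1 and nkd2 transcripts were both low. The RNA came from whole tissue, so fewer cells of a type and less RNA per cell cannot be told apart.

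Over the 199 members the median of the group means was 6.69 RPKM in WT, 0.418 RPKM in the libraries labelled nkd1-Ds and 0.707 RPKM in nkd2-Ds, against 4.91, 4.96 and 5.02 RPKM over the 26706 genes tested. The median member stood at 7.93% of its WT mean in the libraries labelled nkd1-Ds and at 12.9% in nkd2-Ds, with a highest of 42.2% and 41.4%. Summed over all members, the transcripts reached 2639 to 2733 RPKM in WT, 342 to 426 RPKM with the nkd1-Ds label and 429 to 460 RPKM in nkd2-Ds. As a share of all reads, which does not use the authors' library factors, they took 1964 to 2363 reads per megaread of a WT library, 482 to 556 with the nkd1-Ds label and 383 to 527 in nkd2-Ds. As background to these differences, limma called 29.2% of all tested genes lower in the libraries labelled nkd1-Ds than in WT and 13.6% lower in nkd2-Ds. Nothing is read from that share, since the rule used both contrasts.

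**Figure D1:**
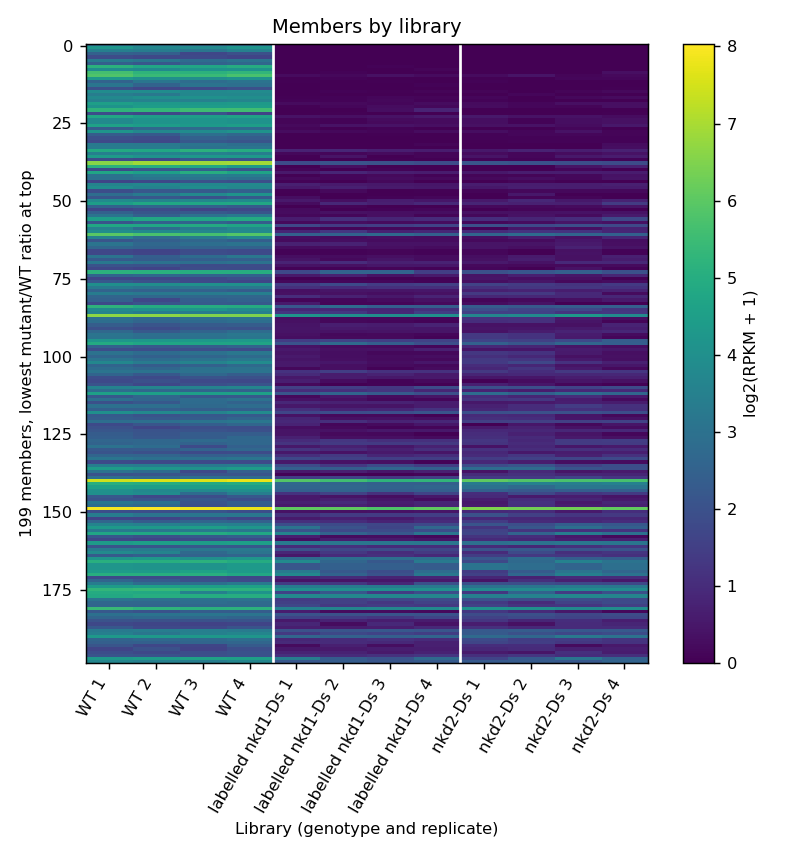
Heat map of log2(RPKM + 1) for the 199 members (rows, lowest ratio of highest mutant to lowest WT value at the top) in the 12 libraries (columns, by genotype label and replicate). The upper rows are near 0 in the 8 mutant libraries, and the lower rows keep a visible level there, as the rule's limit of 0.5 allows.

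The members fell into 3 tiers by the ratio of the highest mutant value to the lowest WT value. In 43 members that ratio was 0 to 0.05, in 58 members over 0.05 to 0.25 and in 98 members over 0.25 to 0.5. Most were of low or moderate level in WT, with 73 members at 2 to 5 RPKM, 92 at 5 to 20, 29 at 20 to 50 and 5 at 50 RPKM or more. In the mutants 74 members kept 1 RPKM or more as the mean of one mutant or of both, and 125 were under 1 RPKM in both. Just inside the limit lay GRMZM2G079295 at a ratio of 0.499, GRMZM2G052337 at 0.498 and GRMZM2G096877 at 0.496. Just outside it lay GRMZM2G331932 at 0.501, AC183514.3_FG005 at 0.506 and GRMZM2G112718 at 0.507. There was no gap at the limit, as 49 genes had a ratio over 0.4 to 0.5 and 107 genes a ratio over 0.5 to 0.6.

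**Figure D2:**
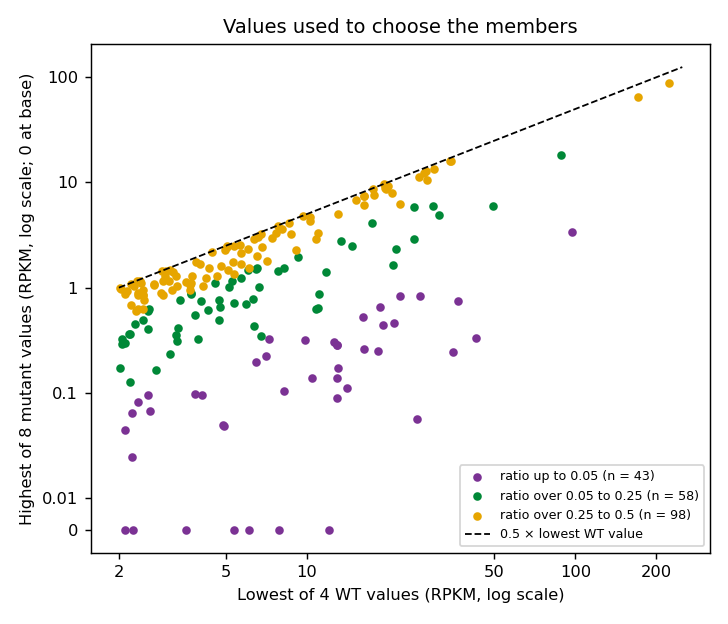
Lowest of 4 WT values against highest of 8 mutant values in RPKM (both log axes, 0 drawn at the base) for the 199 members, coloured by tier (43, 58 and 98 members). The dashed line is the rule's limit of 0.5, under which every member lies by choice, and 7 members sit at 0 on the vertical axis.

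Only 34 of the 199 members (17.1%) matched a gene of the RefSeq table (assembly NAM-5.0), against 12542 of 26706 tested genes (47.0%). The share was lower in each band of WT level, at 10.96% of members against 40.8% of tested genes from 2 to 5 RPKM, 18.5% against 51.5% from 5 to 20 RPKM, and 26.5% against 65.4% at 20 RPKM or more. Most matches carry only a locus number or a marker name. The symbols of 5 members, HYD1, HO1, asr1, PPR-816 and lrk1, are gene symbols of another kind, and they are described first. The other members are given by identifier, without a role.

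HYD1 (GRMZM2G164318, also BCH1 and ZmcrtRB3) codes for a beta-carotene hydroxylase, an enzyme that turns beta-carotene into xanthophylls. For HYD1 replicates 1 to 4 stood at 5.39, 5.38, 6.30 and 5.85 RPKM in WT, 1.84, 1.87, 1.42 and 1.99 in the libraries labelled nkd1-Ds and 1.57, 0.999, 2.003 and 2.49 in nkd2-Ds. All 8 mutant libraries lay below all WT libraries, as the rule requires of every member, and the mutant groups overlapped each other. The means were 5.73 ± 0.442 RPKM in WT, 1.78 ± 0.248 in the libraries labelled nkd1-Ds and 1.77 ± 0.635 in nkd2-Ds, and the mutants held 31.0% and 30.8% of the WT mean. Between the mutants the difference on the log2(RPKM + 1) scale was -0.03 ± 0.142 (mean ± SE, limma adjusted p = 0.879). In gene order HYD1 lies 19 placed loci from nkd1, and of the placed members it is the nearest to a targeted gene, the next being GRMZM2G109668 at 74 placed loci from nkd2.

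A list of carotenoid pathway genes held 11 measured identifiers, of which HYD1 was the only member of the set. crtRB1 (GRMZM2G152135), another beta-carotene hydroxylase gene, met the rule and was left out by name, so it is given without a test: it averaged 89.2 ± 5.56 RPKM in WT, 8.63 ± 0.806 RPKM with the nkd1-Ds label and 6.96 ± 1.03 RPKM in nkd2-Ds. vp14, dxs1, psy2 and CCD1 averaged under 1 RPKM in every group and were not tested, with mutant means on either side of WT. The 5 remaining identifiers were tested and belong to 4 genes, since pds1 (phytoene desaturase) has a pair of them. Of these 5, limma called 4 lower and 0 higher in the libraries labelled nkd1-Ds than in WT, beside 29.2% lower and 26.5% higher of all tested genes. In nkd2-Ds it called 2 lower and 0 higher, beside 13.6% lower and 12% higher. Their median log2 difference was -0.40 and -0.11 in these comparisons, against -0.02 and -0.01 over all genes tested. PSY1 (phytoene synthase, the entry step of the pathway) fell from 12.4 ± 1.41 RPKM in WT to 5.09 ± 0.713 RPKM with the nkd1-Ds label and 7.58 ± 0.372 RPKM in nkd2-Ds (limma adjusted p = 3.64e-07 and 0.000199). The pds1 identifier GRMZM5G815358 was called lower in both, from 13.3 ± 0.827 RPKM to 9.83 ± 0.934 and 10.2 ± 1.53 RPKM (adjusted p = 0.00300 and 0.0144). The other pds1 identifier, GRMZM2G410515, was called lower with the nkd1-Ds label (-0.24, adjusted p = 0.00555) but not in nkd2-Ds (-0.11, adjusted p = 0.239). dxs2 (GRMZM2G493395, of the plastid route that supplies the pathway) was likewise called lower with the nkd1-Ds label (-0.45, adjusted p = 0.016) and not in nkd2-Ds (0.14, adjusted p = 0.494). Both mutants are compared with the same WT libraries here. With libraries scaled by their total reads, where the median of all genes moved to 0.43 and 0.12, the counts were 1 lower and 1 higher with the nkd1-Ds label and 1 lower and 0 higher in nkd2-Ds, beside 7.46% lower and 61.4% higher, and 4.6% lower and 12.1% higher, of all genes. PSY1 was the gene called lower in both. The pds1 identifiers were then called in neither comparison, and their differences turned to 0.10 and 0.26 with the nkd1-Ds label. dxs2 lost its call (-0.16, adjusted p = 0.438), and vp9 (GRMZM2G454952) was called higher with the nkd1-Ds label (0.44, adjusted p = 0.00631).

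HO1 (GRMZM2G043277) codes for a heme oxygenase, which opens the heme ring on the way to the chromophore of phytochrome. For HO1 the WT libraries held 5.58, 3.70, 4.99 and 6.14 RPKM, those labelled nkd1-Ds 0.346, 0.324, 0.337 and 0.367, and those of nkd2-Ds 0.316, 0.533, 0.745 and 0.864. Every mutant value lay under every WT value, again by the rule, and the mutant groups overlapped through nkd2-Ds replicate 1. asr1 (GRMZM2G136910) codes for a small protein of the abscisic acid, stress and ripening family. For asr1 values were 3.12, 3.29, 3.66 and 2.71 RPKM in WT, 0.466, 0.623, 0.395 and 0.194 with the nkd1-Ds label and 0.569, 1.06, 0.781 and 0.492 in nkd2-Ds. The mutant groups overlapped, and their difference was 0.28 ± 0.123 (limma adjusted p = 0.0848), against 0.25 ± 0.132 for HO1 (adjusted p = 0.144). That of asr1 was called without nkd2-Ds replicate 4 (0.35, adjusted p = 0.0474) and with the replicate number as a block (0.28, adjusted p = 0.0349). Both asr1 and HO1 were under 1 RPKM in both mutant groups and passed the filter on low values through WT alone. PPR-816 (GRMZM2G124602, also PPR-814a and PPR-814b) codes for a pentatricopeptide repeat protein, a family that acts on RNA in organelles. For PPR-816 replicates 1 to 4 stood at 7.59, 6.596, 6.86 and 7.17 RPKM in WT, 1.65, 1.88, 2.29 and 2.59 in the libraries labelled nkd1-Ds and 3.05, 2.68, 2.70 and 2.39 in nkd2-Ds. Its difference of 0.26 ± 0.0975 (limma adjusted p = 0.045) was close to the threshold, with 3 of 4 nkd2-Ds libraries above all of the others. The call was lost on leaving out any single library other than replicates 3 and 4 labelled nkd1-Ds and nkd2-Ds replicate 4 (adjusted p of 0.0513 to 0.129), and on the total-reads scale the sign turned (-0.0086, adjusted p = 0.96). lrk1 is described with its neighbours.

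The most abundant members per length of gene kept different shares of their level. For GRMZM2G062076 (marker umc2257), the highest of the set, replicates 1 to 4 stood at 246, 261, 229 and 224 RPKM in WT, 66.9, 67.0, 55.7 and 66.8 in the libraries labelled nkd1-Ds and 88.7, 79.1, 79.1 and 68.1 in nkd2-Ds. Its mutant groups did not overlap, with nkd2-Ds the higher, at a log2 difference of 0.29 ± 0.0877 (limma adjusted p = 0.0173), which on the total-reads scale turned to -0.09 and was not called (adjusted p = 0.504). The call was also lost without replicate 3 labelled nkd1-Ds (0.23, adjusted p = 0.054) or nkd2-Ds replicate 1 (0.23, adjusted p = 0.0522). GRMZM2G394827 (clone name pco068622) was next, and the WT libraries held 172, 190.4, 195 and 215 RPKM, those labelled nkd1-Ds 58.6, 46.3, 36.6 and 38.3, and those of nkd2-Ds 65.2, 56.1, 51.7 and 51.0. Its mutant groups overlapped, and the difference of 0.33 ± 0.131 missed the threshold (adjusted p = 0.0608), but was called without replicate 1 labelled nkd1-Ds (0.46, adjusted p = 0.00508). These members stood at 26.7% and 32.8% and at 23.3% and 29.0% of their WT means in the libraries labelled nkd1-Ds and in nkd2-Ds. For GRMZM2G096695 (marker IDP774) values were 97.0, 117, 114 and 121 RPKM in WT, 2.56, 3.19, 3.01 and 2.62 with the nkd1-Ds label and 3.36, 3.09, 2.79 and 2.59 in nkd2-Ds. Its mutant values formed 1 narrow range, 2.53% and 2.63% of the WT mean, and the difference between the mutants was 0.04 ± 0.0875 (adjusted p = 0.744). On the total-reads scale that difference was called lower in nkd2-Ds (-0.25, adjusted p = 0.0443).

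Of the other members among the 12 of highest WT level, GRMZM2G112730 averaged 95.3 ± 6.68 RPKM in WT, 15.4 ± 1.19 in the libraries labelled nkd1-Ds and 14.2 ± 2.90 in nkd2-Ds. AC214507.3_FG001 averaged 55.1 ± 5.63 RPKM in WT, 4.896 ± 0.579 in the libraries labelled nkd1-Ds and 5.14 ± 0.611 in nkd2-Ds. For the latter all mutant values were between 4.45 and 5.94 RPKM, and the mutant groups overlapped in both genes. Closer to the limit, GRMZM5G803275 averaged 37.4 ± 2.91 RPKM in WT, 15.5 ± 0.4003 in the libraries labelled nkd1-Ds and 13.9 ± 0.279 in nkd2-Ds. GRMZM2G160460 averaged 36.9 ± 3.76 RPKM in WT, 11.6 ± 1.15 in the libraries labelled nkd1-Ds and 14.7 ± 1.26 in nkd2-Ds. The first of this pair stood lower in nkd2-Ds without a call (-0.14 ± 0.0583, limma adjusted p = 0.0619, but called at 0.0414 without WT replicate 2), and the second was higher in nkd2-Ds (0.31 ± 0.0875, adjusted p = 0.012). With total-reads scaling the latter turned to -0.04 and was not called (adjusted p = 0.785). A further identifier of the GRMZM2G160460 locus, GRMZM2G160504, was no member and stood lower in nkd2-Ds. It averaged 2.13 RPKM in WT, 0.645 in the libraries labelled nkd1-Ds and 0.328 in nkd2-Ds. GRMZM2G001998 averaged 32.6 ± 1.68 RPKM in WT, 3.49 ± 1.61 in the libraries labelled nkd1-Ds and 3.46 ± 0.661 in nkd2-Ds. GRMZM2G062120, at 32.3 ± 2.08 RPKM in WT, ranged from 3.65 to 13.5 RPKM with the nkd1-Ds label and from 2.35 to 10.7 RPKM in nkd2-Ds, and is taken up with the members it varied with.

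At the other end, every mutant value of 43 members was at most 0.05 of the lowest WT value, and 26 members had at most 10 reads over all 8. In 7 members all 8 mutant libraries held 0 reads. Of these, AC198371.3_FG007 was the highest in WT, at 17.5, 12.2, 12.7 and 16.7 RPKM, or 171 to 245 reads per library. Against a floor of 3 reads per library it was at least 78.9-fold lower in the mutants. AC198371.3_FG012, from the same clone by its name, averaged 9.49 ± 1.15 RPKM in WT and was at least 33.4-fold lower. For the remaining 5 the bounds were at least 36.8-fold for GRMZM2G174641, 27.3-fold for GRMZM5G892720, 24.2-fold for GRMZM2G131715, 17.6-fold for AC197442.3_FG002 and 10.6-fold for GRMZM2G020106. These bounds follow the WT read number, which was as low as 17 reads in 1 WT library for GRMZM2G020106, and they cover counting error only.

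Other members of this tier left a few reads. GRMZM2G130888 held 34.0, 26.2, 25.8 and 30.5 RPKM in WT and 1 read in all 8 mutant libraries together, in replicate 3 labelled nkd1-Ds. GRMZM2G078311 held 14.02, 12.9, 16.3 and 16.6 RPKM in WT and likewise 1 mutant read, in replicate 4 labelled nkd1-Ds. For AC234522.1_FG006 values were 48.4, 36.1, 34.996 and 37.8 RPKM in WT, 0, 0.0656, 0 and 0 with the nkd1-Ds label and 0, 0, 0 and 0.245 in nkd2-Ds. Its few mutant reads fell in 1 library of each mutant. For GRMZM2G506671 replicates 1 to 4 stood at 36.7, 39.0, 45.0 and 46.1 RPKM in WT, 0, 0, 0.229 and 0.747 in the libraries labelled nkd1-Ds and 0, 0, 0 and 0 in nkd2-Ds. All of its mutant reads were thus in replicates 3 and 4 labelled nkd1-Ds. For GRMZM2G031688 the WT libraries held 55.02, 43.0, 42.7 and 51.9 RPKM, those labelled nkd1-Ds 0.170, 0.126, 0.276 and 0.183, and those of nkd2-Ds 0.172, 0.332, 0.0677 and 0.141. Here every mutant library kept some reads, at 0.391% and 0.370% of the WT mean. GRMZM2G163576 averaged 15.9 ± 1.75 RPKM in WT, 0.0202 ± 0.0290 in the libraries labelled nkd1-Ds and 0.0600 ± 0.0544 in nkd2-Ds.

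The members' places in gene order were read from the RefSeq table, since no source used here names the build behind the deposited values. Of 12066 placed tested loci 32 were member loci (0.265%). Of these, 18 fell in 7 runs in which the next member was at most 30 placed loci away, and 11 lay within 3 places of another member locus. Unplaced genes may lie between them, and whether this exceeds what chance gives was not tested. The genes of the runs are named for their place, a choice made after their values were seen.

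In 1 run 4 placed tested loci that followed each other directly were all members: GRMZM2G113421, GRMZM2G502350, GRMZM2G077914 and lrk1 (GRMZM2G064750). For GRMZM2G113421 replicates 1 to 4 stood at 4.86, 4.66, 4.63 and 4.04 RPKM in WT, 0.247, 0.367, 0.368 and 0.391 in the libraries labelled nkd1-Ds and 0.645, 0.726, 0.577 and 0.744 in nkd2-Ds. For GRMZM2G502350 the WT libraries held 4.21, 3.82, 6.64 and 5.56 RPKM, those labelled nkd1-Ds 0, 0, 0.0224 and 0, and those of nkd2-Ds 0.0645, 0.0980, 0.0950 and 0.0882. For the third, GRMZM2G077914, values were 3.404, 3.17, 3.14 and 2.87 RPKM in WT, 0.331, 0.316, 0.441 and 0.436 with the nkd1-Ds label and 0.894, 0.861, 0.849 and 0.879 in nkd2-Ds. WT lay above both mutants in all of these libraries, as the rule requires. In GRMZM2G113421 and GRMZM2G077914 each nkd2-Ds library lay above each library labelled nkd1-Ds. For lrk1 replicates 1 to 4 stood at 2.91, 2.61, 4.60 and 4.21 RPKM in WT, 0, 0.0121, 0.0115 and 0 in the libraries labelled nkd1-Ds and 0.0497, 0.0671, 0.0651 and 0.0453 in nkd2-Ds. GRMZM2G502350 and lrk1 were near 0 in all mutant libraries and varied together in WT, where replicates 3 and 4 were the higher. Between the mutants, GRMZM2G113421 was higher in nkd2-Ds by 0.32 ± 0.0770 (limma adjusted p = 0.00534) and GRMZM2G077914 by 0.44 ± 0.0714 (adjusted p = 0.000352), but with total-reads scaling GRMZM2G113421 was not called (0.21, adjusted p = 0.13). For GRMZM2G502350 the difference was 0.11 ± 0.121 (adjusted p = 0.493) and for lrk1 0.07 ± 0.123 (adjusted p = 0.677). On the recovered reads, where low genes keep larger log2 differences, voom called both higher in nkd2-Ds (2.66 and 2.55, adjusted p = 0.0182 and 0.0335). These calls rest on 12 and 16 reads over all 8 mutant libraries. All 4 genes of the run were under 1 RPKM in both mutant groups and passed the filter through WT alone. The placed tested genes on either side were no members: GRMZM2G366953 averaged 8.49, 9.47 and 8.59 RPKM and GRMZM5G875864 averaged 3.06, 5.74 and 4.67 RPKM in WT, the libraries labelled nkd1-Ds and nkd2-Ds.

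**Figure D3:**
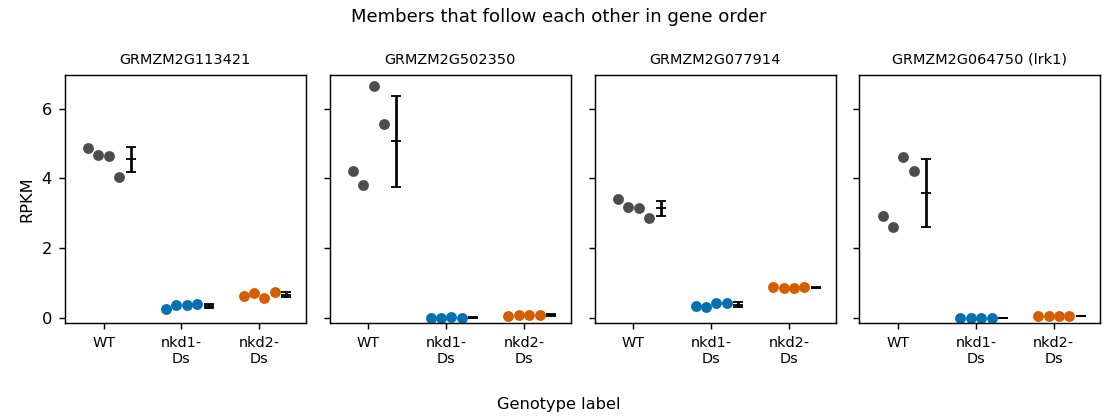
RPKM of the 4 members that follow each other in gene order, 1 panel per gene, by genotype label (points are the 4 libraries of a group, bars are mean ± SD, n = 4). WT libraries lie between 2.61 and 6.64 RPKM and all mutant libraries under 0.9 RPKM, with GRMZM2G502350 and lrk1 near 0 in both mutants.

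Other runs mixed members of different depth. GRMZM2G128477, GRMZM2G160460 and GRMZM2G141252 lay within 5 placed loci. GRMZM2G141252 averaged 6.64 ± 1.25 RPKM in WT and held 1 read in the 8 mutant libraries, while GRMZM2G128477 kept 29.5% and 37.7% of its WT mean. GRMZM5G847982 and GRMZM2G394827 were separated by 1 placed locus, GRMZM2G094892. That gene had 0 reads in all WT libraries, 1.84 RPKM with the nkd1-Ds label and 0.010 RPKM in nkd2-Ds. GRMZM2G062076 lay 3 places from LOC100282624, a locus to which 3 members (GRMZM2G102795, GRMZM2G127850 and GRMZM5G871980) map. Those identifiers varied together across libraries at a lowest r of 0.991, so they are not independent members. GRMZM2G001079, at 8.27 ± 0.928 RPKM in WT and 18.8% and 23.6% of it in the mutants, is next to PDIL5-1, a protein disulfide isomerase gene whose identifiers the rule leaves out by name. GRMZM2G045192 and GRMZM5G851862, whose values between the mutants are given further on, are 22 places apart.

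Some members varied together between libraries of the same group. By the correlation of deviations from the group means, over 12 libraries and on log2(RPKM + 0.1), 50 identifiers joined into 12 sets in which each had a partner at r of at least 0.95. A share over all tested genes is given only at a stricter limit: 7.74% of them had a partner at r of at least 0.98, as did 49 members (24.6%). Counting each set once, the 199 members made 161 groups. In 2 pairs the members had the same reads in every library, GRMZM2G072044 with GRMZM2G473936 and GRMZM2G487906 with GRMZM2G542610. Others came close, such as GRMZM2G022553 and GRMZM2G088957, whose reads differed only in WT replicate 3 and replicate 3 labelled nkd1-Ds. The same reads as another gene were found for 2.01% of members and 0.389% of tested genes. Whether the identifiers of a set share reads through similar sequence was not tested. The sets were formed after the values were seen and get no test.

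Set 1, with 16 identifiers of 1486 to 2433 bases, averaged 5.36, 4.48, 5.18 and 5.87 RPKM in WT replicates 1 to 4. It averaged 0.389, 0.186, 0.165 and 0.112 RPKM with the nkd1-Ds label and 1.20, 1.04, 0.409 and 0.186 RPKM in nkd2-Ds. Within nkd2-Ds, replicates 1 and 2 were far above replicate 4, and replicate 4 was within the range of the libraries labelled nkd1-Ds. Set 2, with 7 identifiers of 167 to 1029 bases, averaged 12.4, 11.1, 4.71 and 7.28 RPKM in WT. Its mutant averages were 0.895, 1.42, 0.833 and 1.30 RPKM with the nkd1-Ds label and 0.734, 1.96, 0.847 and 1.18 RPKM in nkd2-Ds, so WT replicates 1 and 2 stood apart from replicate 3 while the mutant groups overlapped. Set 3, with 6 identifiers that include GRMZM2G062120 and GRMZM2G052337, was even in WT at 24.9, 25.03, 27.8 and 23.9 RPKM. It was uneven in the mutants, at 10.6, 4.33, 3.07 and 7.11 RPKM with the nkd1-Ds label and 1.92, 4.53, 8.71 and 5.98 RPKM in nkd2-Ds. The highest mutant library of this set was replicate 1 labelled nkd1-Ds and the lowest was nkd2-Ds replicate 1. None of these 29 identifiers matched a RefSeq gene (0 of 16, 0 of 7 and 0 of 6).

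**Figure D4:**
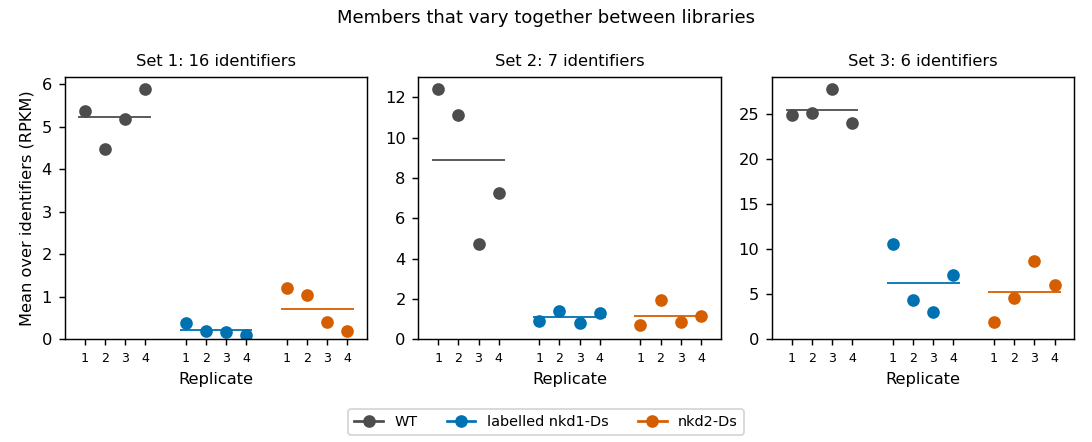
Mean RPKM over the identifiers of sets 1, 2 and 3 (16, 7 and 6 members) in each library, by genotype label and replicate; horizontal lines are group means and each panel has its own axis from 0. Set 1 is spread within nkd2-Ds (1.20 to 0.186 RPKM), set 2 within WT (12.4 to 4.71 RPKM) and set 3 within both mutants (10.6 to 1.92 RPKM).

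The direct comparison asks which members differed between the mutant groups, which were both low in nkd2 transcript while nkd1 transcript stood at 12.8 and 35.1 RPKM. limma called 42 of 199 members higher in nkd2-Ds (21.1%) and 3 lower (1.51%), at a Benjamini-Hochberg adjusted p under 0.05. Over all 26706 genes tested the shares were 21.6% higher and 20.2% lower, or 41.8% in either direction. The median difference was 0.08 over members and 0.02 over all genes, and 58 members had an unadjusted p under 0.05. Many members are low here: of the 45 called, 21 were under 1 RPKM in both mutant groups. With the mutant samples alone, the filter left 74 members, of which 20 were called higher and 2 lower, beside 20.6% higher and 19.5% lower of all genes in that fit.

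The count depends on the scale. With libraries scaled by their total reads, 21 members were called higher (10.6%) and 18 lower (9.05%), beside 5.31% higher and 46.9% lower of all genes, while the median over all tested genes shifted from 0.02 to -0.30. Of the 45 called members 24 kept their call, 17 lost it with the same sign, and 4 turned sign and were not called (GRMZM2G062076, GRMZM2G124602, GRMZM2G128477 and GRMZM2G160460). With quantile normalization 41 kept their call and none turned sign. Without nkd2-Ds replicate 1 the higher calls among members numbered 23, and without nkd2-Ds replicate 2 they numbered 24. Over all genes, the fits without 1 library gave 4983 to 5712 higher calls, against 5759 with all libraries. Counting identifiers that vary together once, an alternative chosen after seeing the data, left 33 higher and 3 lower. Set 1 alone held 9 of the 42.

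GRMZM2G045192 had the largest difference between the mutants on the log2(RPKM + 1) scale, an order that other scales did not keep. For this gene replicates 1 to 4 stood at 31.8, 30.4, 28.0 and 29.8 RPKM in WT, 5.52, 4.95, 4.51 and 4.35 in the libraries labelled nkd1-Ds and 8.73, 10.7, 9.84 and 10.6 in nkd2-Ds. No library of one mutant overlapped those of the other, and nkd2-Ds was higher by 0.91 ± 0.0794 (limma adjusted p = 1.96e-06). For GRMZM5G851862, its neighbour at 22 places, the WT libraries held 3.08, 3.35, 3.27 and 3.32 RPKM, those labelled nkd1-Ds 0.0504, 0.0299, 0.0284 and 0.0775, and those of nkd2-Ds 0.983, 1.161, 0.804 and 0.765. It was near 0 in the libraries labelled nkd1-Ds and kept 28.5% of the WT mean in nkd2-Ds, a difference of 0.88 ± 0.0793 (adjusted p = 2.71e-06) with 4 of 4 nkd2-Ds libraries above the others. On the total-reads scale these differences were 0.59 and 0.84, and with a pseudocount of 0.1 RPKM they were 1.03 and 2.81. GRMZM5G851862 was under 1 RPKM in both mutant groups and passed the filter on low values through WT alone. GRMZM6G616789 averaged 14.98 ± 1.69 RPKM in WT, 0.896 ± 0.138 in the libraries labelled nkd1-Ds and 2.12 ± 0.622 in nkd2-Ds. It was higher in nkd2-Ds by 0.70 ± 0.134 (adjusted p = 0.00112), again in 4 of 4 libraries, and by 1.12 with the smaller pseudocount.

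The next genes were uneven within nkd2-Ds. For GRMZM2G171567 values were 12.1, 9.09, 11.1 and 13.8 RPKM in WT, 0.448, 0.399, 0.216 and 0.413 with the nkd1-Ds label and 1.56, 2.29, 1.22 and 0.639 in nkd2-Ds. All 4 nkd2-Ds libraries were above the others, by 0.78 ± 0.177 on average (limma adjusted p = 0.00339), with replicate 4 the nearest. For GRMZM2G321023 replicates 1 to 4 stood at 9.29, 8.24, 9.03 and 10.1 RPKM in WT, 0.289, 0.280, 0.217 and 0.274 in the libraries labelled nkd1-Ds and 1.53, 1.53, 0.889 and 0.183 in nkd2-Ds. Here nkd2-Ds replicate 4 was below all libraries labelled nkd1-Ds and the other 3 were above them, at 0.62 ± 0.190 (adjusted p = 0.019), a call lost without nkd2-Ds replicate 1 (0.0582) or replicate 2 (0.0604). GRMZM2G362556, of set 1, had the same order of libraries in nkd2-Ds, 1.54, 1.25, 0.526 and 0.202 RPKM, against 0.288, 0.135, 0.154 and 0.112 RPKM with the nkd1-Ds label. It was higher in nkd2-Ds by 0.62 ± 0.187 in 3 of 4 libraries (adjusted p = 0.0175), and not called without nkd2-Ds replicate 2 (0.0556). With a pseudocount of 0.1 RPKM the differences of these genes were 1.61, 1.35 and 1.60. Of them, GRMZM2G362556 was under 1 RPKM in both mutant groups and entered the fit through WT alone.

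3 members were lower in nkd2-Ds than in the libraries labelled nkd1-Ds. For GRMZM5G847982 replicates 1 to 4 stood at 8.64, 7.83, 8.48 and 7.66 RPKM in WT, 3.29, 2.39, 2.58 and 2.76 in the libraries labelled nkd1-Ds and 2.03, 1.29, 1.15 and 1.28 in nkd2-Ds. Every nkd2-Ds library lay below every library labelled nkd1-Ds, with a difference of -0.63 ± 0.109 (limma adjusted p = 0.00056). For its neighbour at 2 places, GRMZM2G394827, the difference was 0.33 ± 0.131 without a call. For GRMZM2G125452 (clone name pco063687) the WT libraries held 17.3, 19.4, 15.3 and 17.7 RPKM, those labelled nkd1-Ds 6.16, 6.86, 6.64 and 6.57, and those of nkd2-Ds 3.63, 6.04, 4.23 and 4.14. nkd2-Ds replicate 2 came closest to the libraries labelled nkd1-Ds, and all 4 were below them, at -0.47 ± 0.112 (adjusted p = 0.00454), or -0.81 on the total-reads scale. GRMZM2G019854 averaged 2.86 ± 0.302 RPKM in WT, 0.350 ± 0.0607 in the libraries labelled nkd1-Ds and 0.152 ± 0.0157 in nkd2-Ds. Its 4 nkd2-Ds libraries were all below the others, by a small difference of -0.23 ± 0.0773 (adjusted p = 0.0308) that was not called without nkd2-Ds replicate 1, 2 or 3 or without replicate 3 or 4 labelled nkd1-Ds (0.0577 to 0.0747). With a pseudocount of 0.1 RPKM it was -0.83. This gene was under 1 RPKM in both mutant groups and entered the fit through WT alone.

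**Figure D5:**
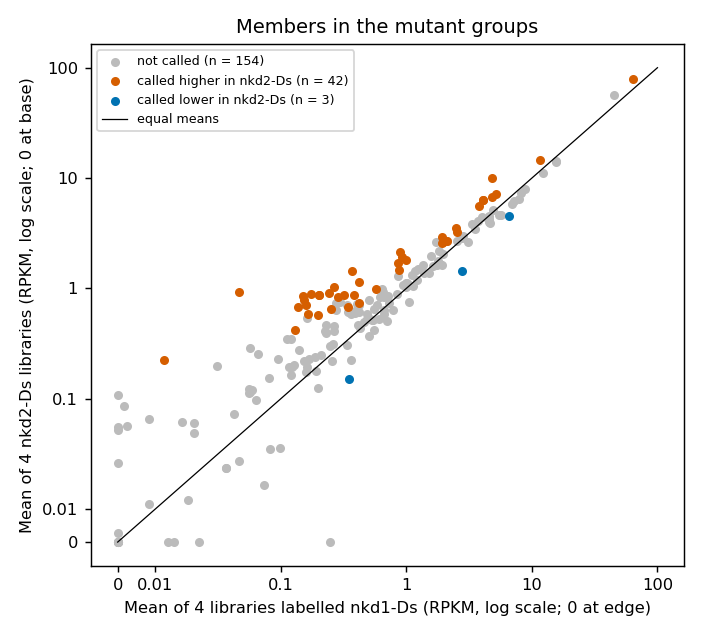
Mean RPKM of each of the 199 members over 4 libraries labelled nkd1-Ds (horizontal) and 4 nkd2-Ds libraries (vertical), both log axes with 0 drawn at the edge; colours give the limma call at an adjusted p under 0.05. The 42 members called higher in nkd2-Ds lie above the line of equal means and the 3 called lower lie below it.

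Genes of other named groups were counted for membership. None of 9 aleurone genes measured, 12 of the embryo-surrounding region or basal transfer layer, 3 of the embryo, 3 of pericarp or photosynthesis and 27 zein genes was a member. The same held for 4 oil body and lipid reserve genes, 13 aquaporin genes, 10 endosperm transcription factor genes, 30 genes of SnRK2 and abscisic acid signalling and 7 nitrogen genes. The aleurone and endosperm transcription factor lists name nkd2, which met the rule and was left out by name, so it is not counted as a member. The summed level of the 9 aleurone markers was 180 to 196 RPKM in WT, 134 to 165 RPKM with the nkd1-Ds label and 195 to 266 RPKM in nkd2-Ds. The aleurone list names nkd1 and nkd2, so this sum may hold their own fall. The calls of aleurone genes leave out nkd2 but may count the targeted gene nkd1 itself among the lower ones. Nothing is read from them. Against WT, limma called 3 of 8 tested aleurone genes lower and 2 higher with the nkd1-Ds label, beside 29.2% and 26.5% of all genes. In nkd2-Ds it called 1 lower and 3 higher, beside 13.6% and 12%. In the same order of groups, the 12 markers of embryo-surrounding region and basal transfer layer summed to 61.1 to 292, 84.7 to 158 and 22.3 to 273 RPKM. The 3 embryo markers summed to 14.7 to 16.1, 16.3 to 19.9 and 31.0 to 61.5 RPKM. Pericarp and photosynthesis markers summed to 1.25 to 1.76, 1.99 to 2.46 and 1.54 to 2.13 RPKM. No marker measured in these lists was at 0 in all libraries. Zein genes, which code for the storage proteins of the starchy endosperm, took 41.4% to 47.7% of reads in WT, 26.8% to 28.5% with the nkd1-Ds label and 35.9% to 48.7% in nkd2-Ds. The part of cell type make-up in the members' levels was not tested.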

How the data were processed

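The 12 libraries, 4 per genotype, were made from polyadenylated RNA with the TruSeq Stranded kit, per the labels' protocols. TopHat2 2.1.1, Cufflinks 2.2.1, featureCounts and FastQC appear in the submitters' processing notes without a stated role. No source used here gives the genome build, the annotation or the strand setting of counting, so reads of overlapping, antisense or near-identical genes may be mixed. Each deposited table holds 1 RPKM value per gene, a unit judged from the values. From the steps between values, whole reads and gene lengths could be recovered for all 34307 genes above 0 somewhere (tolerance 0.02 reads). The authors' library factors ranged over 27.3 to 31.1 megareads in WT. They ranged over 34.3 to 40.5 megareads with the nkd1-Ds label and over 27.8 to 30.9 megareads in nkd2-Ds.

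All 12 samples entered 1 limma fit (version 3.58.1, R 4.3.3, trend option) on log2(RPKM + 1), with genotype as the only factor. It covered 26706 genes that averaged 1 RPKM or more in some group. That scale understates differences of low genes. Tests were two-sided, with Benjamini-Hochberg adjustment over all genes in the fit. All 199 members passed the filter, 125 of them through WT alone. The fit was also tested on simulated data. A fold against a group without reads used a floor of 3 reads per library. The p-values measure the spread between libraries, which the series calls biological replicates. Alternatives were other pseudocounts, no filter, total-reads and quantile scaling, voom on recovered reads, a replicate block, fewer samples and other limits of the rule.

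The members, the gene lists and the rule for named genes were chosen with earlier results of these data known. Named are the 12 members highest in WT, the 12 with the lowest ratio, up to 6 called differences between the mutants in each direction, the 3 genes nearest the limit on either side, members with a functional symbol, members within 30 placed loci of nkd1 or nkd2, and list members. Locus names and order come from the RefSeq table of assembly NAM-5.0. Of the list symbols, 2 were ambiguous and left out. The labels give no batch.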

Additional observations from a re-analysis of the deposited data

Results flagged for a closer look

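Of 120 groups of 4 values examined (39 named members and the summed level, in 3 genotypes), 3 were flagged. Each of these held a library whose gap to the others was large for the range of the group. Groups with no value above 0.5 RPKM were never flagged, whatever their gaps, so the count is not set against a rate by chance. For GRMZM2G062076 this was replicate 3 labelled nkd1-Ds, at 55.7 RPKM below the other libraries of its group. For GRMZM2G096877 it was nkd2-Ds replicate 2, at 1.44 RPKM above its group. For GRMZM5G847982 it was nkd2-Ds replicate 1, at 2.03 RPKM above its group.

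In the direct comparison limma called the mutants different for 14 members described. Of these, GRMZM5G851862, GRMZM2G362556, GRMZM2G019854, GRMZM2G077914 and GRMZM2G113421 were under 1 RPKM in both mutant groups and entered the fit through WT alone. The differences of GRMZM2G062076, GRMZM2G160460 and PPR-816 turned sign with total-reads scaling and were then not called. On the log2(RPKM + 1) scale the difference of nkd2-Ds minus nkd1-Ds was 0.91 for GRMZM2G045192, 0.88 for GRMZM5G851862 and 0.78 for GRMZM2G171567. It was 0.70 for GRMZM6G616789, 0.62 for GRMZM2G321023 and 0.62 for GRMZM2G362556. The members below the libraries labelled nkd1-Ds were GRMZM5G847982 at -0.63, GRMZM2G125452 at -0.47 and GRMZM2G019854 at -0.23. Higher levels in nkd2-Ds were also called for GRMZM2G077914 at 0.44, GRMZM2G113421 at 0.32, GRMZM2G160460 at 0.31, GRMZM2G062076 at 0.29 and PPR-816 at 0.26.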

How the results depend on the processing

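With libraries scaled by total reads, genes called higher in nkd2-Ds than in the libraries labelled nkd1-Ds went from 5759 to 1442 and lower from 5398 to 12743, and members went from 42 to 21 higher and from 3 to 18 lower. Against WT, genes lower in the libraries labelled nkd1-Ds went from 7800 to 2026, higher from 7077 to 16665, and genes lower in nkd2-Ds from 3624 to 1249. With only the 8 mutant samples 20 members were higher, where the filter left 74 members to test. Leaving out 1 library gave 23 to 48 members higher and 2 to 4 lower, beside 4983 to 5712 higher and 4701 to 5333 lower of all genes. The rule chose 306 genes at a ratio of 0.6 and 111 at a WT minimum of 5 RPKM; leaving out 1 library gave 199 to 234, and total-reads scaling 141, of which 135 were members. The order of the named differences changed with the scale. None of the 9 differences named as the largest called in each direction turned direction in any setting run. They were picked by direction, so some differences that did turn were larger in size than that of GRMZM2G019854. Of the other differences described, those that turned sign with total-reads scaling were -0.0086 for PPR-816, -0.0877 for GRMZM2G062076, -0.0446 for GRMZM2G160460, -0.0488 for GRMZM2G394827 and -0.2526 for GRMZM2G096695 between the mutants, and, against WT, 0.0994 for GRMZM5G815358 and 0.2622 for GRMZM2G410515 with the nkd1-Ds label and 0.0438 for GRMZM2G410515 in nkd2-Ds. Leaving out 1 library gave -0.1538 to 0.1146 for HYD1 and -0.0079 to 0.0861 for GRMZM2G096695. Deviations of same-numbered libraries correlated at -0.276 to 0.125, which alone cannot show whether replicate numbers pair samples. With replicate number as a block 40 members were higher and 2 lower, 39 of the 45 calls remained, and GRMZM2G019854 was not called (limma adjusted p = 0.0658). Members under 1 RPKM in the mutants rest on few reads, which limits any difference between the mutants there. The cause of each change was not tested.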
